A study of Mus musculus with 21 samples.

Results

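The 9 genes reported here are Zscan4c, Zscan4d, Zscan4f, Usp17la, Usp17lc, Usp17le, Tcstv1, Tcstv3 and Zfp352, which mouse embryos transcribe around the 2-cell stage. Zscan4 genes encode zinc finger proteins with a SCAN domain, Usp17l genes encode deubiquitinating enzymes, Tcstv genes encode proteins named for variable transcription at the 2-cell stage, and Zfp352 encodes a zinc finger protein. In cultures of mouse embryonic stem cells (mESCs) such genes are transcribed in a small and changing share of the cells. They are 9 of the 23412 genes listed in each count file. All 9 were selected from earlier results of these same libraries, so that they changed says nothing about how often other genes changed. Of the 23412 genes, 14963 had enough counts to be tested, and all 9 members were among them.

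The study asked what the cohesin-associated proteins PDS5A and PDS5B do to transcription in mESCs, and whether their effects overlap with those of the cohesin subunits STAG1 and STAG2. Male v6.5 mESCs on gelatin were transfected for 48 h with 50 nM of a short interfering RNA (siRNA) by DharmaFECT, and their poly-A RNA was sequenced as 150-base read pairs. Each knockout (KO) was a single CRISPR clone, so a difference between genotypes cannot be told apart from a difference between clones. There were 7 conditions with 3 libraries each, and siGLO is a transfection control that targets no gene.

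The conditions were WT siGLO, WT siPds5b, Pds5a-KO siGLO, Pds5b-KO siGLO, Pds5a-KO siPds5b, Pds5a-KO siStag1 and Pds5a-KO siStag2. Total counts in replicates 1, 2 and 3 were 23283401, 17539639 and 23989198 in WT siGLO and 19628146, 17835821 and 17434084 in WT siPds5b. They were 20009068, 21360847 and 20327839 in Pds5a-KO siGLO and 19187351, 19535977 and 20445930 in Pds5b-KO siGLO. With a second siRNA target in the Pds5a-KO clone they were 22026367, 18752413 and 19421506 (siPds5b), 20791962, 17939301 and 20036207 (siStag1) and 19855380, 17311090 and 19554088 (siStag2). No 2 libraries of a condition were identical in any of 21 pairs. A legend of the study calls the replicates biological, but separate cultures are not given in the sources used here. The p-values below then measure only the spread between these samples, which may be technical.

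Levels are given as normalized counts, that is, counts scaled to a mean effective library size of 19816922, in the order of replicates 1, 2 and 3. A mean is followed by the standard deviation (SD) over 3 libraries, and a log2 fold change by its standard error (SE). A family sum adds the raw counts of the members of a family before scaling, since near-identical copies can share reads. Groups overlap when the highest library of the lower group reaches the lowest library of the other. A gene is called when edgeR's quasi-likelihood test, adjusted over all 14963 genes by the Benjamini-Hochberg method, gave a p under 0.01. Since the 9 members were chosen by their changes in these libraries, no p is given for them. Intervals and floors below cover counting error only.

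The mESC label was checked with 10 marker genes, all of which were detected in every condition, with Tdgf1 the most abundant. Their summed level was 157330, 153550 and 147570 in WT siGLO, 159290, 154610 and 145160 in WT siPds5b, 129670, 123180 and 116240 in Pds5a-KO siGLO, and 111290, 118680 and 126190 in Pds5b-KO siGLO. It was 107940, 102070 and 97840 with siPds5b in the Pds5a-KO clone, 115990, 109380 and 111220 with siStag1, and 86630, 101020 and 98112 with siStag2. Against WT siGLO, 6 of the 10 were called lower in Pds5a-KO siGLO, 6 in Pds5b-KO siGLO (and 1 higher), 7 in Pds5a-KO siPds5b, 6 in Pds5a-KO siStag1 and 9 in Pds5a-KO siStag2, beside 8.12%, 8.57%, 14.6%, 9.37% and 13.9% of all tested genes called lower. Against Pds5a-KO siGLO, 1 was lower in Pds5a-KO siStag1 and 6 in Pds5a-KO siStag2, where the family sums stayed low, beside 0.0802% and 1.27% of all tested genes. Against that control 7 were lower in Pds5a-KO siPds5b, beside 3.59%, among them Klf4 (−1.43 ± 0.0805, adjusted p 2.1e-11) and Esrrb (−1.43 ± 0.0799, adjusted p 2.1e-11), both lower in all 3 libraries. The part of these markers in the results for the 9 members was not tested.

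In every condition but Pds5a-KO siStag2, replicate 1 was further from replicates 2 and 3 than these were from each other. The mean chi-square per gene was 13.1 and 11.9 against 4.77 in WT siGLO, 20.5 and 23.1 against 8.50 in Pds5a-KO siGLO and 15.2 and 25.1 against 6.75 in Pds5b-KO siGLO. The gene Rn45s held 1.23%, 0.535% and 0.624% of the counts in replicates 1, 2 and 3 of WT siGLO. It held 1.44%, 0.527% and 0.619% in Pds5a-KO siGLO, 1.37%, 0.541% and 0.477% in Pds5b-KO siGLO and 1.39%, 0.643% and 2.68% in Pds5a-KO siStag2. In the other conditions it held 0.659% to 0.94%, and its part in the results was not tested. In replicate 1 of Pds5a-KO siGLO, Pds5a-KO siPds5b and Pds5a-KO siStag1 the summed trophoblast markers were 13106, 13434 and 9680, against 35898 and 34860, 34020 and 35016, and 22700 and 23879 in the other replicates. Without replicate 1 of Pds5a-KO siGLO, the log2 fold change against WT siGLO was −3.11 in place of −2.99 for the Zscan4 sum, −2.67 in place of −2.41 for the Usp17l sum, −3.20 in place of −3.21 for the Tcstv sum and −3.54 in place of −3.13 for Zfp352. Without replicate 1 of Pds5a-KO siPds5b, the change against Pds5a-KO siGLO was 2.61 in place of 2.80 for the Zscan4 sum, 3.24 in place of 3.50 for Usp17l, 2.43 in place of 2.52 for Tcstv and 3.81 in place of 4.21 for Zfp352. Without replicate 1 of Pds5a-KO siStag1, the change against WT siGLO was −2.76 in place of −3.03 for Zscan4, −2.14 in place of −2.42 for Usp17l, −3.20 in place of −3.46 for Tcstv and −1.09 in place of −1.08 for Zfp352.

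Leaving out replicate 1 of WT siGLO, the change in Pds5a-KO siGLO was −2.86 for the Zscan4 sum, −2.27 for Usp17l and −3.04 for Tcstv, and for Zfp352 it was −3.54 to −2.59 over all 6 libraries left out in turn. The change in Pds5b-KO siGLO was then −0.91 in place of −1.04 for Zscan4, −0.47 in place of −0.61 for Usp17l, −0.91 in place of −1.07 for Tcstv and −0.30 in place of −0.73 for Zfp352. Zfp352 was also at 0.96 in place of 0.55 in WT siPds5b and at −0.67 in place of −1.08 in Pds5a-KO siStag1. Leaving out replicate 1 of Pds5b-KO siGLO instead, the change in Pds5b-KO siGLO was −1.22 for Zscan4, −0.86 for Usp17l, −1.19 for Tcstv and −0.62 for Zfp352.

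Of the targeted genes, Pds5b had 2354.5, 2019 and 2285 normalized counts in WT siGLO, 2613.5, 2073.5 and 2411.5 in Pds5a-KO siGLO, 2472, 2418 and 2419.5 in Pds5a-KO siStag1 and 2812, 2586 and 2656 in Pds5a-KO siStag2. Its level was 687, 839 and 802 in WT siPds5b (−1.52 ± 0.114, adjusted p 4.93e-08, lower in all 3 libraries) and 278, 312 and 238 in Pds5b-KO siGLO (−3.01 ± 0.124, adjusted p 8.81e-14, lower in all 3). In Pds5a-KO siPds5b it was 1073.5, 901 and 736, which was −1.39 ± 0.113 against Pds5a-KO siGLO (adjusted p 2.3e-08, lower in all 3). Stag1 had 2617, 2179.7 and 2589 in WT siGLO, 2432, 2404 and 2716 in WT siPds5b, 2965, 2779.6 and 2526 in Pds5b-KO siGLO, 2677, 2647 and 2567 in Pds5a-KO siPds5b and 2791, 2553 and 2761 in Pds5a-KO siStag2. It had 617, 600.05 and 506 in Pds5a-KO siStag1 against 2515, 2293 and 2475 in Pds5a-KO siGLO (−2.08 ± 0.0878, adjusted p 5.54e-14, lower in all 3). Stag2 had 3191, 3287 and 3652.5 in WT siGLO, 3123, 3456 and 3957 in WT siPds5b, 4204, 3793.5 and 4033 in Pds5b-KO siGLO, 4550.4, 4005 and 3916 in Pds5a-KO siPds5b and 4718, 3891 and 3677 in Pds5a-KO siStag1. It had 851, 954 and 821 in Pds5a-KO siStag2 against 3561, 2930.2 and 3275 in Pds5a-KO siGLO (−1.90 ± 0.104, adjusted p 3.48e-11, lower in all 3).

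Pds5a had 5256, 4720 and 5200 normalized counts in WT siGLO, 4917, 4674 and 5674 in WT siPds5b and 6303, 5360 and 5474 in Pds5b-KO siGLO. In the Pds5a-KO clone it had 4786, 3788 and 4239 with siGLO, 4082, 3806 and 3522 with siPds5b, 4704, 4609 and 4112 with siStag1 and 4686, 4398 and 4349 with siStag2. Between Pds5a-KO siGLO and WT siGLO the change was −0.24 ± 0.089 (adjusted p 0.0415, lower in 2 of 3 libraries than every WT library), and without replicate 1 of Pds5a-KO siGLO it was −0.34 (adjusted p 0.0079). The edits of the clone lie in and next to 1 exon, and a transcript that lies mostly outside them checks nothing, so the Pds5a level neither identifies nor contradicts the Pds5a-KO label.

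Zscan4c lies on chromosome 7 of mm10 from base 11005745 to 11010547 on the + strand, Zscan4d from 11161374 to 11166159 on the − strand and Zscan4f from 11397915 to 11402318 on the + strand. Zscan4c had 718, 486 and 635 normalized counts in WT siGLO (mean 613 ± 118), 848, 506 and 616 in WT siPds5b, 96.5, 70.1 and 52.0 in Pds5a-KO siGLO (72.9 ± 22.4) and 387, 243 and 264 in Pds5b-KO siGLO (298 ± 77.9). It had 601, 546 and 343 in Pds5a-KO siPds5b (497 ± 136), 42.6, 95.6 and 76.7 in Pds5a-KO siStag1 and 61.5, 87.1 and 38.8 in Pds5a-KO siStag2. The 9 Pds5a-KO libraries without siPds5b were all under every library of the other 4 conditions, and Pds5a-KO siPds5b overlapped both WT conditions.

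Zscan4d had 530.2, 377 and 556 normalized counts in WT siGLO, 739.7, 366 and 518 in WT siPds5b, 79.2, 73.9 and 52.0 in Pds5a-KO siGLO and 299, 160.5 and 247 in Pds5b-KO siGLO. It had 631, 571 and 308 in Pds5a-KO siPds5b, 45.5, 84.5 and 59.0 with siStag1 and 50.8, 66.5 and 38.8 with siStag2 in the same clone. As for Zscan4c, the lowest 9 libraries were those of Pds5a-KO siGLO, siStag1 and siStag2. Zscan4f had 561, 350.3 and 451.5 in WT siGLO, 601, 345 and 457 in WT siPds5b, 50.8, 63.6 and 53.0 in Pds5a-KO siGLO and 235, 206 and 207 in Pds5b-KO siGLO. It had 463, 393 and 254 in Pds5a-KO siPds5b, 27.1, 92.2 and 57.0 with siStag1 and 49.8, 66.5 and 26.6 with siStag2. For Zscan4f the Pds5b-KO libraries lay between the lowest 9 and every library of WT siGLO, WT siPds5b and Pds5a-KO siPds5b.

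The Zscan4 sum was 1810, 1213 and 1642 normalized counts in WT siGLO (1555 ± 308) and 2188.5, 1217 and 1591 in WT siPds5b (1665 ± 490). It was 227, 208 and 157 in Pds5a-KO siGLO (197 ± 35.9, 12.7% of the WT siGLO mean) and 922, 610.15 and 717 in Pds5b-KO siGLO (750 ± 158, 48.2%). It was 1695, 1510.3 and 905 in Pds5a-KO siPds5b (1370 ± 413, 88.1%), 115, 272 and 193 in Pds5a-KO siStag1 (193 ± 78.5, 12.4%) and 162, 220 and 104 in Pds5a-KO siStag2 (162 ± 57.9, 10.4%). From high to low the order was WT siPds5b, WT siGLO and Pds5a-KO siPds5b, then Pds5b-KO siGLO, then Pds5a-KO siGLO, siStag1 and siStag2. Neighbours in that order differed by more than the sum of their SDs only between Pds5a-KO siPds5b and Pds5b-KO siGLO, whose libraries overlapped, and between Pds5b-KO siGLO and Pds5a-KO siGLO, whose libraries did not. Counts of bulk RNA cannot tell fewer cells that transcribe these genes from less RNA per such cell, here and in every result below.

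Usp17la lies on chromosome 7 from base 104857009 to 104862667 on the + strand, Usp17lc from 103415072 to 103419880 on the + strand and Usp17le from 104768049 to 104777470 on the − strand. Usp17la had 63.6, 42.8 and 52.9 normalized counts in WT siGLO, 85.6, 48.0 and 68.9 in WT siPds5b, 31.5, 12.2 and 13.5 in Pds5a-KO siGLO and 48.6, 46.9 and 34.0 in Pds5b-KO siGLO. It had 223, 181 and 120 in Pds5a-KO siPds5b, 4.84, 16.7 and 17.7 with siStag1 and 20.5, 14.9 and 9.20 with siStag2. All 3 Pds5a-KO siPds5b libraries were above the other 18, and the other 9 Pds5a-KO libraries were under every library of WT and Pds5b-KO.

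Usp17lc had 77.3, 55.2 and 70.3 normalized counts in WT siGLO, 76.4, 64.7 and 52.8 in WT siPds5b, 19.3, 5.61 and 7.71 in Pds5a-KO siGLO and 53.8, 17.9 and 22.3 in Pds5b-KO siGLO. It had 167, 147 and 76.7 in Pds5a-KO siPds5b, 8.72, 7.78 and 10.8 with siStag1 and 8.78, 14.9 and 14.3 with siStag2. Replicate 3 of Pds5a-KO siPds5b fell among the WT libraries for Usp17lc, and Pds5a-KO siGLO overlapped Pds5b-KO siGLO. Usp17le had 165, 113 and 141 in WT siGLO, 175, 105 and 108 in WT siPds5b, 15.2, 22.4 and 21.2 in Pds5a-KO siGLO and 121, 93.7 and 70.9 in Pds5b-KO siGLO. It had 345, 277 and 134 in Pds5a-KO siPds5b, 15.5, 37.8 and 28.5 with siStag1 and 26.4, 27.5 and 25.5 with siStag2. Here too replicate 3 of Pds5a-KO siPds5b fell among the WT libraries.

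The Usp17l sum was 306, 211 and 265 normalized counts in WT siGLO (260 ± 47.8) and 337, 218 and 230 in WT siPds5b (261.5 ± 65.9). It was 66.0, 40.2 and 42.4 in Pds5a-KO siGLO (49.6 ± 14.3, 19.0% of the WT siGLO mean) and 224, 159 and 127 in Pds5b-KO siGLO (170 ± 49.3, 65.2%). It was 735, 605 and 330 in Pds5a-KO siPds5b (557 ± 207, 214%), 29.1, 62.2 and 57.0 in Pds5a-KO siStag1 (49.4 ± 17.8) and 55.6, 57.3 and 49.1 in Pds5a-KO siStag2 (54.0 ± 4.37). Pds5a-KO siPds5b was the highest condition for this family, above WT siPds5b by more than the sum of the SDs although replicate 3 overlapped it. WT siGLO differed beyond that spread neither from WT siPds5b nor from Pds5b-KO siGLO, its neighbours, and the lowest 3 conditions did not differ from each other. The gap between Pds5b-KO siGLO and Pds5a-KO siStag2 exceeded it, with no overlap.

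Tcstv1 lies on chromosome 13 from base 119893388 to 119894785 on the − strand and Tcstv3 from 120316878 to 120318178 on the + strand. Tcstv1 had 41.2, 39.4 and 31.4 normalized counts in WT siGLO, 46.9, 42.4 and 35.6 in WT siPds5b, 4.06, 8.42 and 2.89 in Pds5a-KO siGLO and 11.6, 11.0 and 12.6 in Pds5b-KO siGLO. It had 24.9, 35.2 and 20.9 in Pds5a-KO siPds5b, 3.88, 5.56 and 1.97 with siStag1 and 3.90, 9.17 and 1.02 with siStag2. Pds5b-KO siGLO was under every library of WT and Pds5a-KO siPds5b and above the remaining 9. Tcstv3 had 63.6, 31.5 and 52.9 in WT siGLO, 66.2, 41.3 and 55.1 in WT siPds5b, 5.08, 4.68 and 2.89 in Pds5a-KO siGLO and 35.9, 20.9 and 31.1 in Pds5b-KO siGLO. It had 35.5, 33.2 and 13.0 in Pds5a-KO siPds5b, 0.969, 6.67 and 4.92 with siStag1 and 3.90, 3.44 and 3.07 with siStag2. For Tcstv3, Pds5a-KO siPds5b overlapped both Pds5b-KO siGLO and WT siGLO.

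The Tcstv sum was 105, 71.0 and 84.3 normalized counts in WT siGLO (86.7 ± 17.1) and 113, 83.7 and 90.7 in WT siPds5b (95.8 ± 15.3). It was 9.14, 13.1 and 5.78 in Pds5a-KO siGLO (9.34 ± 3.66, 10.8% of the WT siGLO mean) and 47.5, 31.9 and 43.7 in Pds5b-KO siGLO (41.0 ± 8.13, 47.3%). It was 60.4, 68.4 and 33.9 in Pds5a-KO siPds5b (54.2 ± 18.1, 62.5%), 4.84, 12.2 and 6.88 in Pds5a-KO siStag1 (7.98 ± 3.81) and 7.81, 12.6 and 4.09 in Pds5a-KO siStag2 (8.17 ± 4.27). Only the step from Pds5b-KO siGLO to Pds5a-KO siGLO exceeded the sum of the SDs of both conditions. Between WT siGLO and Pds5a-KO siPds5b the gap in means was 32.5 with a sum of SDs of 35.1, although every Pds5a-KO siPds5b library was under every WT siGLO library.

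Zfp352 lies on chromosome 4 from base 90218820 to 90225702 on the + strand. It had 18.0, 12.4 and 6.62 normalized counts in WT siGLO (12.4 ± 5.72, from 21, 11 and 8 counts), 24.5, 15.6 and 13.8 in WT siPds5b and 6.33, 9.97 and 5.82 in Pds5b-KO siGLO. It had 2.03, 1.87 and 0 in Pds5a-KO siGLO, from 2, 2 and 0 counts. In Pds5a-KO siPds5b it had 38.2, 18.7 and 20.9 (25.9 ± 10.7, from 43, 18 and 21 counts), with 5.81, 5.56 and 5.90 with siStag1 and 2.93, 1.15 and 5.11 with siStag2. The ratio of Pds5a-KO siGLO to WT siGLO was 0.105 (95% counting interval 0.0274 to 0.292), from 4 against 40 counts. From Pds5a-KO siPds5b to Pds5a-KO siGLO it was 20.5 (7.7 to 76.9), from 82 against 4 counts. Unlike the family sums, Zfp352 was above Pds5a-KO siGLO in all 3 Pds5a-KO siStag1 libraries, with a ratio of 4.45 (1.45 to 18.2). With siStag2 the ratio was 2.42 (0.675 to 10.7), an interval that includes 1. In the order of conditions only the step from Pds5a-KO siStag1 down to Pds5a-KO siStag2 exceeded the sum of the SDs, with no overlap. That step rests on 6, 5 and 6 counts against 3, 1 and 5. At such low counts the SDs cannot decide whether it exceeds counting error.

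**Figure D1:**
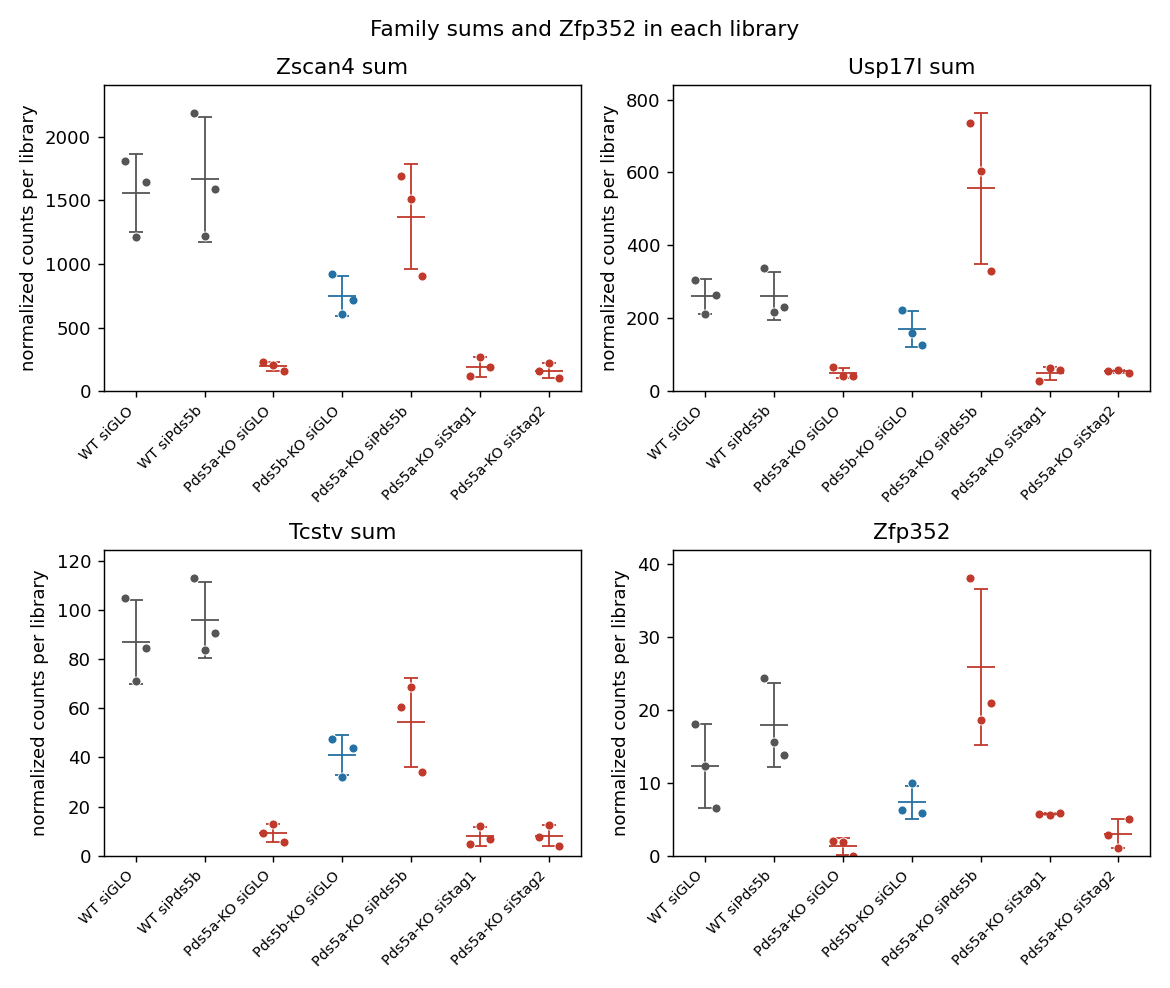
Normalized counts of the Zscan4, Usp17l and Tcstv sums and of Zfp352 in the 7 conditions; points are libraries, and bars show the mean and SD of 3 libraries. The Zscan4 sum was 1213 to 1810 in WT siGLO, 157 to 227 in Pds5a-KO siGLO and 905 to 1695 in Pds5a-KO siPds5b.

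Levels of different genes can be compared only per length. In WT siGLO, normalized counts per kilobase of the longest annotated transcript were 269 ± 51.8 for Zscan4c, 248 ± 57.6 for Zscan4f and 215 ± 42.4 for Zscan4d. They were 74.1 ± 13.9 for Usp17le, 63.4 ± 20.9 for Tcstv3, 29.2 ± 4.08 for Tcstv1, 28.1 ± 4.71 for Usp17lc, 19.995 ± 3.91 for Usp17la and 5.43 ± 2.51 for Zfp352. By these values the 3 Zscan4 genes were the most abundant of the 9 and Zfp352 the least. Reads shared between copies can raise or lower the values of single genes, mainly Zscan4c, Zscan4f and Usp17lc. The order of single genes is therefore approximate. In Pds5a-KO siPds5b the values were 222 ± 75.7 for Zscan4d, 218 ± 59.8 for Zscan4c, 202 ± 58.0 for Zscan4f, 134 ± 57.3 for Usp17le, 65.7 ± 19.6 for Usp17la and 54.2 ± 19.7 for Usp17lc. All 3 Usp17l genes then stood above Tcstv3 (34.9 ± 15.9), Tcstv1 (21.1 ± 5.78) and Zfp352 (11.4 ± 4.69).

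The first comparison asked what loss of PDS5A alone did. Against WT siGLO, the log2 fold change in Pds5a-KO siGLO was −2.99 ± 0.347 for the Zscan4 sum, −2.41 ± 0.325 for the Usp17l sum, −3.21 ± 0.347 for the Tcstv sum and −3.13 ± 0.676 for Zfp352. Single genes ran from −1.50 for Usp17la to −3.53 for Tcstv3, with Zscan4c at −3.08, Zscan4d at −2.84, Zscan4f at −3.02, Usp17lc at −2.65, Usp17le at −2.82 and Tcstv1 at −2.82. For each of the 9 genes the groups did not overlap, beside 20.4% of all tested genes lower without overlap and 20.4% higher. All 9 were called lower, beside 8.12% of tested genes called lower (1215) and 9.63% called higher (1441).

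Loss of PDS5B alone was compared in the same way. In Pds5b-KO siGLO against WT siGLO, the log2 fold change was −1.04 ± 0.312 for the Zscan4 sum, −0.61 ± 0.286 for Usp17l, −1.07 ± 0.286 for Tcstv and −0.73 ± 0.496 for Zfp352. The groups overlapped for the Usp17l sum and for Zfp352. Among single genes, Zscan4c (−1.04), Zscan4d (−1.06), Zscan4f (−1.08), Usp17lc (−1.12) and Tcstv1 (−1.66 ± 0.377) were lower without overlap, and Usp17la (−0.31), Usp17le (−0.56) and Tcstv3 (−0.77) overlapped. These 5 of 9 stand beside 22.5% of all tested genes lower without overlap and 22.8% higher. Of the 9, 1 (Tcstv1) was called lower, beside 8.57% of tested genes called lower and 9.64% called higher. The knockouts were also set against each other, with Pds5a-KO siGLO below Pds5b-KO siGLO by −1.95 ± 0.346 for the Zscan4 sum, −1.80 ± 0.332 for Usp17l, −2.14 ± 0.369 for Tcstv and −2.40 ± 0.740 for Zfp352. All members but Usp17lc were lower in Pds5a-KO siGLO without overlap, beside 19.7% of all tested genes (21.4% higher). Of the 9, 5 were called lower, beside 9.46% of tested genes called lower and 9.74% called higher. For Tcstv1 the difference between the knockouts was −1.17, and −1.74 without replicate 2 of Pds5a-KO siGLO.

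In WT cells the libraries with siPds5b overlapped those with siGLO for all 9 members. The log2 fold change was 0.096 ± 0.304 for the Zscan4 sum, 0.0024 ± 0.280 for Usp17l, 0.14 ± 0.269 for Tcstv and 0.55 ± 0.441 for Zfp352. Single family members ran from −0.11 for Usp17le to 0.34 for Usp17la. Paired by replicate number, WT siPds5b was above WT siGLO in all 3 pairs for Usp17la, Tcstv1, Tcstv3, Zfp352 and the Tcstv sum, and none of the 9 genes was below it in all 3. These 4 of 9 genes stand beside 16.6% of all tested genes above in all 3 pairs and 17.2% below. By edgeR 0 members were called, with or without a replicate block, beside 0% of tested genes called higher and 0.00668% called lower, which is the 1 gene Pds5b. DESeq2 called 4 genes lower, edgeR with a replicate block 3, and 631 of the 14963 had an unadjusted p under 0.05.

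In the Pds5a-KO clone, siPds5b went with higher levels of all 9 genes. Against Pds5a-KO siGLO the log2 fold change in Pds5a-KO siPds5b was 2.80 ± 0.347 for the Zscan4 sum, 3.50 ± 0.323 for Usp17l, 2.52 ± 0.359 for Tcstv and 4.21 ± 0.613 for Zfp352. Single genes ran from 2.36 for Tcstv1 to 3.67 for Usp17le, with Zscan4c at 2.77, Zscan4d at 2.88, Zscan4f at 2.73, Usp17la at 3.20, Usp17lc at 3.59 and Tcstv3 at 2.66. No group overlapped for any of the 9, beside 15.9% of all tested genes higher without overlap and 15.4% lower. All 9 were called higher, beside 4% of tested genes called higher (599) and 3.59% called lower (537).

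Set against WT siGLO, the families in Pds5a-KO siPds5b did not move together. The Zscan4 sum differed by −0.19 ± 0.304 with overlapping libraries, the Usp17l sum by 1.09 ± 0.273 with every library higher, the Tcstv sum by −0.69 ± 0.277 with every library lower and Zfp352 by 1.08 ± 0.419 with every library higher. Replicate 3 was the lowest Pds5a-KO siPds5b library for all 3 family sums. Its Zscan4 sum was 905, against 1695 and 1510 in replicates 1 and 2 and a mean of 1555 in WT siGLO. Its Tcstv sum was 33.9, against 60.4 and 68.4 in replicates 1 and 2 and a WT siGLO mean of 86.7. Among single genes Usp17la (1.71 ± 0.312) was higher without overlap, and Usp17lc (0.94 ± 0.321) and Usp17le (0.85 ± 0.280) were higher with overlap. Zscan4c (−0.31), Zscan4d (0.043), Zscan4f (−0.30), Tcstv1 (−0.47) and Tcstv3 (−0.86) overlapped WT siGLO. Of all tested genes 27.6% were higher without overlap and 26.7% lower. Of the 9, 1 (Usp17la) was called higher, beside 17.4% of tested genes called higher and 14.6% called lower.

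The difference between what siPds5b did in the clone and in WT cells is the interaction of genotype and siPds5b. It was 2.71 ± 0.458 on the log2 scale for the Zscan4 sum, 3.50 ± 0.426 for Usp17l, 2.38 ± 0.453 for Tcstv and 3.66 ± 0.798 for Zfp352. Single genes ran from 2.20 for Tcstv1 and 2.54 for Tcstv3 to 3.66 for Usp17lc and 3.78 for Usp17le. Of the 9, 7 were called higher in the interaction, beside 0.588% of tested genes called higher (88) and 0.896% called lower (134). With a replicate block 9 members were called, and the total over all tested genes went from 222 to 389.

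Adding siStag1 or siStag2 in the Pds5a-KO clone left the families low. Against Pds5a-KO siGLO, siStag1 differed by −0.034 ± 0.373 for the Zscan4 sum, −0.0050 for Usp17l and −0.25 for Tcstv, with overlapping libraries, and by 2.05 ± 0.775 for Zfp352, higher in all 3 libraries. With siStag2 the differences were −0.29 ± 0.381 for Zscan4, 0.13 for Usp17l, −0.21 for Tcstv and 1.19 ± 0.871 for Zfp352, all with overlap. Of single genes, only Usp17le with siStag2 (0.42) was also higher without overlap. Paired by replicate number, siStag1 was above siGLO in all 3 pairs for Usp17le and Zfp352 and below it for Tcstv1, and siStag2 was above it for Usp17le and below it for Zscan4d and the Tcstv sum. Of all tested genes, 20.4% were above in all 3 pairs and 20.8% below with siStag1, and 24.7% and 23.3% with siStag2, while 8.13% and 13.9% were higher without overlap. By edgeR 0 of the 9 were called, with or without a replicate block, beside 0.0134% of tested genes called higher and 0.0802% called lower with siStag1, and 0.969% and 1.27% with siStag2. With a replicate block the totals rose from 2 higher and 12 lower to 18 and 30 with siStag1, and from 145 and 190 to 363 and 314 with siStag2. Without replicate 1 of Pds5a-KO siStag2 and without that block, the siStag2 totals fell to 13 and 55.

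Against WT siGLO, Pds5a-KO siStag1 was lower by −3.03 ± 0.350 for the Zscan4 sum, −2.42 ± 0.327 for Usp17l, −3.46 ± 0.361 for Tcstv and −1.08 ± 0.518 for Zfp352. Pds5a-KO siStag2 was lower by −3.28 ± 0.357 for Zscan4, −2.28 ± 0.324 for Usp17l, −3.42 ± 0.361 for Tcstv and −1.94 ± 0.583 for Zfp352. All 9 genes were lower without overlap in both, beside 22.8% of all tested genes with siStag1 and 25.3% with siStag2 (23.4% and 27.1% higher). With siStag1 8 of the 9 (all but Zfp352) were called lower, beside 9.37% of tested genes called lower and 10.6% called higher, and with siStag2 all 9, beside 13.9% and 16.2%. The comparisons with WT siGLO share those 3 libraries, and those with Pds5a-KO siGLO share its 3, so they are not independent of each other.

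The families were also compared within each library as ratios of sums. The Usp17l sum divided by the Zscan4 sum was 0.169, 0.174 and 0.161 in WT siGLO (0.168 ± 0.00632) and 0.434, 0.401 and 0.365 in Pds5a-KO siPds5b (0.400 ± 0.0346), without overlap. In Pds5a-KO siGLO it was 0.252 ± 0.0514, in Pds5b-KO siGLO 0.227 ± 0.0436, in Pds5a-KO siStag1 0.259 ± 0.0342 and in Pds5a-KO siStag2 0.358 ± 0.106, all above every WT siGLO library, and in WT siPds5b 0.159 ± 0.0178 with overlap. The Tcstv sum divided by the Zscan4 sum moved the other way, from 0.0579, 0.0585 and 0.0514 in WT siGLO (0.0559 ± 0.00397) to 0.0356, 0.0453 and 0.0374 in Pds5a-KO siPds5b (0.0395 ± 0.00514), without overlap. In Pds5a-KO siStag1 the ratio was 0.0409 ± 0.0047, also under every WT siGLO library, but from Tcstv sums of 5, 11 and 7 counts. At such low counts the SD and the lack of overlap cannot tell a shift from counting error. In Pds5a-KO siGLO (0.0467 ± 0.0142), Pds5a-KO siStag2 (0.0482 ± 0.00904), Pds5b-KO siGLO (0.0549 ± 0.0052) and WT siPds5b (0.0592 ± 0.00877) it overlapped WT siGLO. In 5 of 7 conditions the same library was lowest for all 3 sums, among them WT siGLO with replicate 2 and Pds5a-KO siPds5b with replicate 3.

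Reads can be shared between copies of a family. Of the windows of 150 bases along the annotated transcripts, 61% in Zscan4c, 13% in Zscan4d and 77.4% in Zscan4f were identical to a window in another gene. For Usp17la this share was 1.28%, for Usp17lc 29.4%, for Usp17le 0.754%, and for Tcstv1, Tcstv3 and Zfp352 0%. Transcripts of the members were 97.5% to 99.6% identical for Zscan4, 93.5% to 94.9% for Usp17l and 94.5% for Tcstv. How the counts treated reads that match several genes is not given in the sources used here, so single Zscan4 genes are read less firmly than their sum.

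Of 19 further copies of the families listed, 5 were in the files and tested, namely Zscan4a, Zscan4b, Zscan4e, Usp17lb and Usp17ld. Of their windows of 150 bases, 25.1%, 66.4%, 75%, 2.23% and 36.1% in that order were identical to a window in another gene, members among them. Their counts can therefore hold reads of the members. Their calls and p-values are thus not independent of the members, which were chosen by their changes. All 5 were called lower in Pds5a-KO siGLO against WT siGLO and higher in Pds5a-KO siPds5b against Pds5a-KO siGLO, beside 8.12% and 4% of all tested genes. The list medians were −2.80 and 2.77, beside 0.0021 and −0.00038 over all tested genes. Zscan4a had 778, 501 and 605 normalized counts in WT siGLO, 78.2, 73.9 and 52.0 in Pds5a-KO siGLO (−3.21 ± 0.364, adjusted p 7.67e-06, lower in all 3 libraries), 281, 185 and 219 in Pds5b-KO siGLO and 347, 406 and 195 in Pds5a-KO siPds5b. Against Pds5a-KO siGLO it was higher by 2.22 ± 0.367 in Pds5a-KO siPds5b (adjusted p 0.000647, all 3 libraries). It was the 1 copy called lower in Pds5b-KO siGLO (−1.46 ± 0.322, adjusted p 0.00285, all 3 libraries), beside 8.57% of all tested genes. Zscan4a was not called there without replicate 1 of WT siGLO (adjusted p 0.015) or without replicate 2 (0.0178) or 3 (0.0129) of Pds5b-KO siGLO.

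Usp17lb had 80.8, 57.5 and 89.3 normalized counts in WT siGLO, 29.5, 29.0 and 18.3 in Pds5a-KO siGLO and 345, 293 and 180.4 in Pds5a-KO siPds5b. It was the 1 copy called higher in Pds5a-KO siPds5b against WT siGLO (1.84 ± 0.305, adjusted p 4.92e-05, all 3 libraries), beside 17.4% of all tested genes, with 2 copies called without replicate 3 of Pds5a-KO siPds5b. Its change in Pds5a-KO siGLO was −1.58 ± 0.362 (adjusted p 0.00234, all 3 libraries lower), which was not called without replicate 3 of WT siGLO (adjusted p 0.0139) or of Pds5a-KO siGLO (0.0172). With siStag1 and with siStag2, 4 of the 5 copies (all but Usp17ld) were called lower against WT siGLO, beside 9.37% and 13.9% of all tested genes. Another 4 (all but Usp17lb) were lower in Pds5a-KO siGLO against Pds5b-KO siGLO (2 without replicate 1 of Pds5b-KO siGLO), beside 9.46%. By edgeR 0 copies were called in WT siPds5b against WT siGLO, or with siStag1 or siStag2 against Pds5a-KO siGLO, with 0 at an unadjusted p under 0.05 and 0 by DESeq2 in each. Summed over every copy in the files, Zscan4 changed by −3.01 in Pds5a-KO siGLO and −0.35 in Pds5a-KO siPds5b against WT siGLO, and Usp17l by −2.19 and 1.30.

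Shares of single copies among the counts of all copies of a family differed between conditions. Zscan4a held 23.5% ± 1.36 of the Zscan4 counts in WT siGLO and 14.9% ± 1.6 in Pds5a-KO siPds5b, and Zscan4d 18.3% ± 1.78 and 23.7% ± 1.05, in both cases without overlap of libraries. The share of Zscan4a was also under every WT siGLO library in Pds5b-KO siGLO (18.4% ± 0.384), Pds5a-KO siStag1 (18.3% ± 3.04) and Pds5a-KO siStag2 (15.1% ± 1.38), and was 20.2% ± 1.49 in Pds5a-KO siGLO. Zscan4c held 22.9% and 23.8%, and Zscan4f 16.9% and 17.7%. Usp17le held 39.3% ± 1.02 of the Usp17l counts in WT siGLO and 28.1% ± 2.92 in Pds5a-KO siPds5b, and Usp17lb 21.4% ± 2.62 and 31.6% ± 1.69, again without overlap. In Pds5a-KO siGLO both shares lay on the same side of WT siGLO, with 26.4% ± 9.33 for Usp17le and 32.8% ± 6.56 for Usp17lb. The Usp17le share there rests on only 15, 24 and 22 counts. The share of Usp17le was under every WT siGLO library also in WT siPds5b (34.2% ± 1.52), Pds5a-KO siStag1 (36.6% ± 1.36) and Pds5a-KO siStag2 (32.3% ± 1.09), but not in Pds5b-KO siGLO (39.7% ± 5.17). Usp17la held 14.9% ± 0.599 in WT siGLO, 17.9% ± 2.43 in WT siPds5b, 23.3% ± 8.04 in Pds5a-KO siGLO and 20.3% ± 1.66 in Pds5a-KO siPds5b. Usp17lc held 19.1% ± 0.101 in WT siGLO, 12.2% ± 3.91 in Pds5b-KO siGLO, 14.8% ± 0.674 in Pds5a-KO siPds5b and 15.4% ± 3.76 in Pds5a-KO siStag2, the last 3 without overlap with WT siGLO. These shares rest on 90, 49 and 85 counts of Usp17lc in WT siGLO and 9, 13 and 14 in Pds5a-KO siStag2. At such counts the SDs and the lack of overlap cannot tell a shift from counting error. Tcstv1 held 44.1% ± 10 of the Tcstv counts in WT siGLO, 29.2% ± 4.97 in Pds5b-KO siGLO and 51.5% in Pds5a-KO siPds5b.

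**Figure D2:**
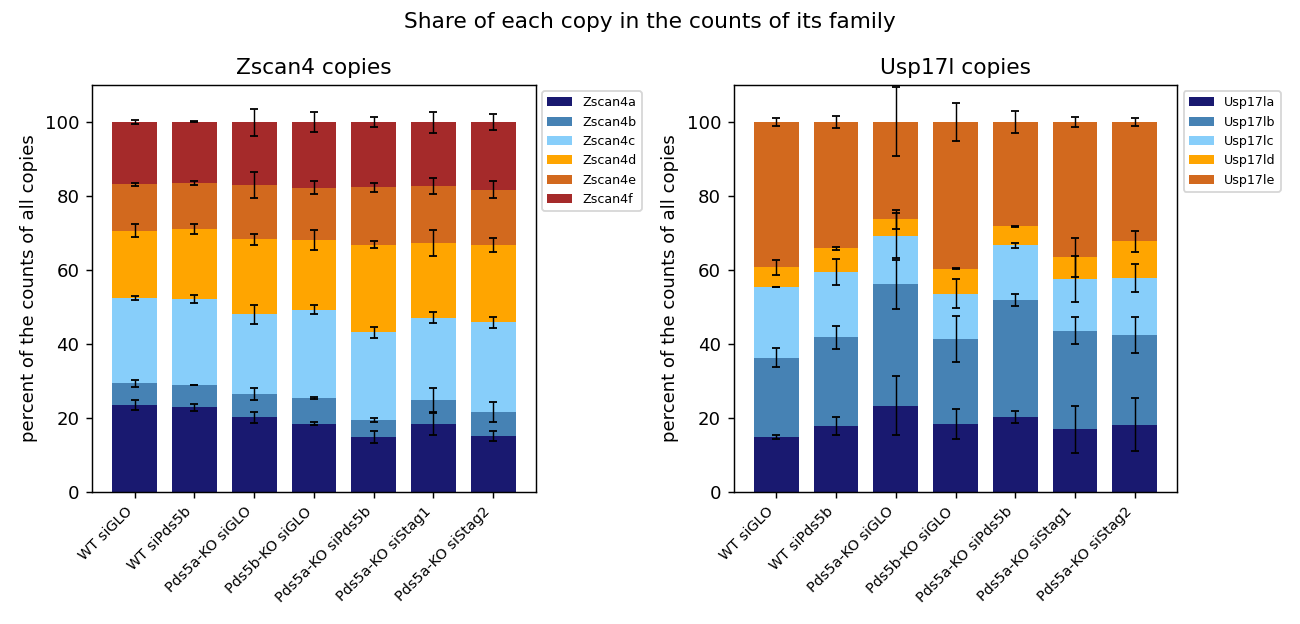
Shares of each Zscan4 and each Usp17l copy among the counts of all copies of its family, in percent, for the 7 conditions; segments are means of 3 libraries and bars their SD. The share of Usp17le was 39.3% in WT siGLO, 26.4% in Pds5a-KO siGLO and 28.1% in Pds5a-KO siPds5b, and that of Usp17lb 21.4%, 32.8% and 31.6%.

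Of 74 other genes listed as transcribed at the 2-cell stage, 67 were in the files and 39 were tested. The list was drawn up with results of these libraries known in part. Its counts, medians and p-values here and below therefore describe the listed genes and are not an independent test. The summed level of the 67 was 5482, 4370 and 4497 normalized counts in WT siGLO, 2406, 2337 and 2501 in Pds5a-KO siGLO, 2760, 2481.5 and 2487 in Pds5b-KO siGLO and 4359, 4326 and 3675 in Pds5a-KO siPds5b. It was 5497, 4512 and 4783.5 in WT siPds5b, 1834, 2091 and 2329 in Pds5a-KO siStag1 and 1777, 2023.5 and 2151 in Pds5a-KO siStag2. Tcl1 was the most abundant, with a mean of 1339.8 in WT siGLO and 265.79 in Pds5a-KO siPds5b. Without Tcl1 the sum was 3910.7, 3073 and 3345.7 in WT siGLO and 4143.8, 4055.1 and 3362.8 in Pds5a-KO siPds5b, so the order of their means turned, with overlapping libraries. In Pds5a-KO siGLO against WT siGLO, 29 of 39 were called lower and 1 (Usp26) higher, beside 8.12% and 9.63% of all tested genes. The median log2 fold change was −2.47, beside 0.0021 over all tested genes. Named by size of change, Abcb5 had 2 counts against 78 (ratio 0.027, 95% counting interval 0.00322 to 0.101, adjusted p 7.83e-06), Pramef6 3 against 72 (0.044, 0.00886 to 0.134, adjusted p 5.99e-05) and Tdpoz3 3 against 70 (0.0452, 0.0091 to 0.138, adjusted p 2.22e-05), each lower in all 3 libraries. Spz1 had 0 counts against 18, at least 1.93-fold lower against a floor of 3 counts per library (adjusted p 0.00393). It was not called without replicate 1 or 2 of WT siGLO or any 1 replicate of Pds5a-KO siGLO (adjusted p up to 0.0167).

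In Pds5b-KO siGLO against WT siGLO, 14 of the 39 were called lower and 0 higher, beside 8.57% and 9.64% of all tested genes. At an unadjusted p under 0.05 edgeR had 27 in either direction, and DESeq2 called 1 higher. The median was −1.07, and 7 were lower without replicate 2 of Pds5b-KO siGLO. The largest were Obox6 (−2.50 ± 0.616, adjusted p 0.0036), Tdpoz3 (−2.26 ± 0.493, adjusted p 0.00132), Zscan5b (−2.06 ± 0.292, adjusted p 1.19e-05) and Tmem92 (−2.03 ± 0.350, adjusted p 0.00012), each lower in all 3 libraries. Obox6 was not called without replicate 2 of WT siGLO (adjusted p 0.015) or without replicate 2 (0.0275) or 3 (0.0232) of Pds5b-KO siGLO, nor Tdpoz3 without replicate 2 (0.0123) or 3 (0.0101) of Pds5b-KO siGLO. Between the knockouts 11 were lower and 3 (Usp26, Calcoco2 and Rpl39l, listed after their values were seen) higher in Pds5a-KO siGLO. The shares of all tested genes were 9.46% and 9.74%. The median was −1.27, or −1.23 with genes at 0 set to their bound. Between the knockouts 7 were lower without replicate 2 of Pds5a-KO siGLO or without replicate 1 or 2 of Pds5b-KO siGLO. There Gm20767 differed by −2.44 ± 0.442 (adjusted p 0.000231) and Gm5039 by −2.10 ± 0.353 (adjusted p 0.000144), lower in all 3 libraries, while Spz1 (0 counts against 20, at least 2.34-fold lower, adjusted p 0.00212) and Abcb5 (2 against 21, ratio 0.0918, 0.0104 to 0.376, adjusted p 0.00473) each lost the call when 1 library was left out. For Spz1 these were replicate 2 of Pds5a-KO siGLO (adjusted p 0.0102) and replicate 1 of Pds5b-KO siGLO (0.0167), and for Abcb5 replicates 1 (0.0208) and 3 (0.0235) of Pds5a-KO siGLO and 1 (0.0184) and 2 (0.0262) of Pds5b-KO siGLO.

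For WT siPds5b against WT siGLO edgeR called 0 of the 39 (1 at an unadjusted p under 0.05, 0 by DESeq2), with a median of 0.13. In Pds5a-KO siPds5b against WT siGLO 6 were higher and 6 lower, beside 17.4% and 14.6% of all tested genes, with a median of 0.19. The largest were Abcb5 (−3.33 ± 0.550, adjusted p 3.25e-05, lower in all 3 libraries), Tdpoz1 (2.69 ± 0.593, adjusted p 0.001), Usp26 (2.65 ± 0.226, adjusted p 2.62e-09) and Tdpoz4 (2.61 ± 0.516, adjusted p 0.000238), the last 3 higher in all 3 libraries. Against Pds5a-KO siGLO, 27 were higher in Pds5a-KO siPds5b and 2 (Tcl1, −1.09, and Calcoco2, −1.11) lower, beside 4% and 3.59% of all tested genes. The median was 2.49, or 2.46 with genes at 0 set to their bound. Among the genes called higher were Tdpoz1 (69 against 2 counts, ratio 34.5, 9.19 to 290, adjusted p 0.000281) and Cml2 (3.83 ± 0.518, adjusted p 1.46e-05), higher in all 3 libraries. So was Tdpoz3 (97 against 3 counts, ratio 32.3, 10.7 to 159, adjusted p 6.45e-06), also in all 3 libraries. Spz1 had 22 counts against 0 (adjusted p 0.00357), and was not called without any 1 replicate of Pds5a-KO siGLO or without replicate 1 of Pds5a-KO siPds5b (adjusted p up to 0.0177).

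Dux, which encodes a transcription factor of the 2-cell stage, had 21.5, 13.5 and 24.0 normalized counts in WT siGLO, 2.03, 3.74 and 0 in Pds5a-KO siGLO, 16.9, 5.98 and 6.79 in Pds5b-KO siGLO and 24.9, 12.4 and 15.9 in Pds5a-KO siPds5b. In Pds5a-KO siStag1 it had 0 counts against 66 in WT siGLO, at least 6.42-fold lower (adjusted p 1.22e-05, all 3 libraries). Of the 39 genes, 28 were lower and 1 (Usp26) higher with siStag1 against WT siGLO, and 28 and 1 (Usp26) with siStag2. The shares of all tested genes were 9.37% and 10.6% with siStag1 and 13.9% and 16.2% with siStag2. The median was −2.48 with siStag1 (−2.46 with genes at 0 at their bound) and −2.65 with siStag2 (−2.57). With siStag1 Ubtfl1 (−4.12 ± 0.723, adjusted p 0.000112), Pramef6 (−3.91 ± 0.674, adjusted p 9.25e-05) and Abcb5 (−3.71 ± 0.586, adjusted p 3.28e-05) were lower in all 3 libraries. With siStag2 Abcb5 had 1 count against 78 (ratio 0.0145, 0.000363 to 0.0834, adjusted p 2.79e-06) and Pramef6 1 against 72 (0.0158, 0.000393 to 0.0906, adjusted p 1.37e-05), beside Tdpoz3 (−3.82 ± 0.613, adjusted p 2.66e-05) and Tmem92 (−3.63 ± 0.416, adjusted p 3.08e-07), all lower in all 3 libraries. Against Pds5a-KO siGLO, edgeR called 0 with siStag1, where 6 had an unadjusted p under 0.05. There DESeq2 called 1 lower, and edgeR with a replicate block 1. With siStag2 edgeR called 1 lower, Calcoco2 (−1.31 ± 0.176, adjusted p 0.000117, all 3 libraries). With a replicate block or without replicate 2 of Pds5a-KO siStag2, 2 were lower with siStag2. The shares of all tested genes called lower were 0.0802% with siStag1 and 1.27% with siStag2.

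**Figure D3:**
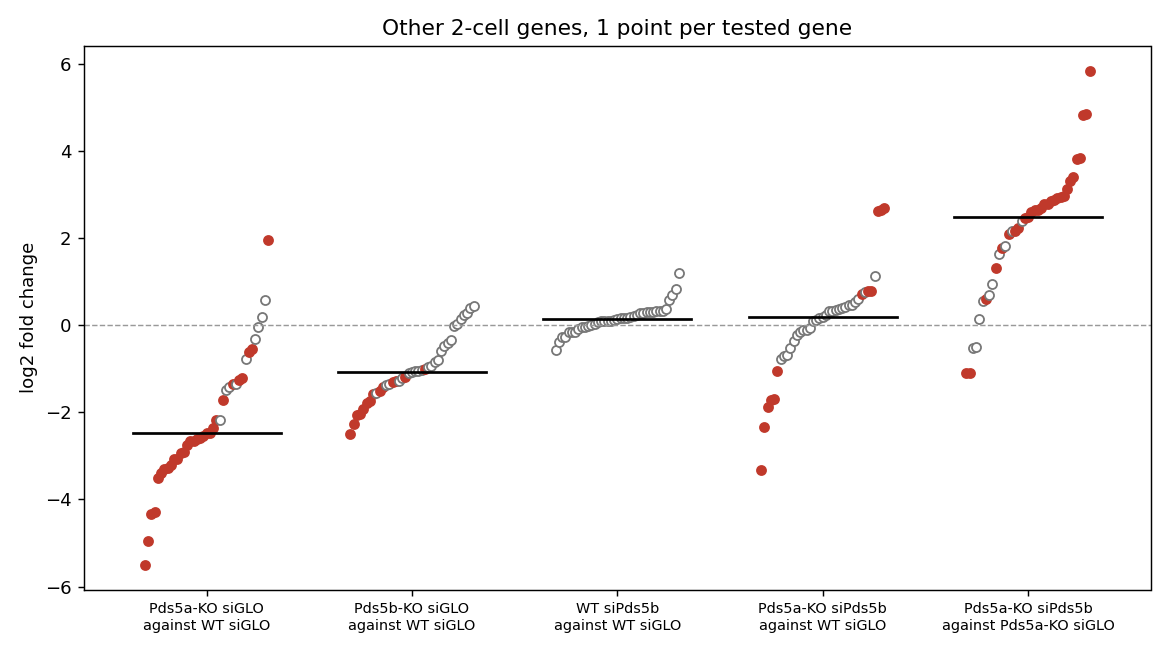
Log2 fold changes of the 39 tested other 2-cell genes in 5 comparisons; each point is a gene, filled when called, and the black line is the median. The median was −2.47 in Pds5a-KO siGLO and 0.19 in Pds5a-KO siPds5b, both against WT siGLO.

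In the interaction of genotype and siPds5b, 11 of the 39 genes were called above 0 and 1 below, beside 0.588% and 0.896% of all tested genes. The median was 2.33, beside 0.0022 over all tested genes. With a replicate block 16 were called in place of 12. Without replicate 2 of Pds5a-KO siGLO 7 were above. The 1 below, Tcl1, was called only with all libraries or without replicate 1 of WT siGLO or replicate 3 of Pds5a-KO siPds5b, and 0 were called without any other 1 of the 12 libraries involved. The 10 genes whose levels over the 21 libraries followed the Zscan4 sum most closely had Pearson coefficients of 0.957 to 0.985, and 8 of the 10 were on the list of other 2-cell genes. For the Usp17l sum these were 0.924 to 0.953 with 8 of 10, and for the Tcstv sum 0.94 to 0.979 with 7 of 10. Since the 21 libraries fall into separate conditions, the coefficients are used only to rank genes. Because the list was drawn up with results of these libraries known in part, its share of the ranking is a description only. The closest to the Zscan4 sum, Gm13109, had means of 106.1 normalized counts in WT siGLO, 13.79 in Pds5a-KO siGLO, 54.2 in Pds5b-KO siGLO and 89.1 in Pds5a-KO siPds5b.

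Of 8 genes listed as regulators of 2-cell genes (Dppa2, Dppa4, Dppa3, Nelfa, Duxbl1, Sumo2, Pias4 and Smarca5), 7 were tested. They are called activators here as a list name only. Whether each of them activates 2-cell genes was not checked, so counts of this list do not describe activation alone. In Pds5a-KO siGLO against WT siGLO, Dppa3 was called higher (2.61 ± 0.237, adjusted p 4.35e-07, all 3 libraries) and Smarca5 lower (−0.56 ± 0.069, adjusted p 1.93e-06, all 3), beside 9.63% and 8.12% of all tested genes. In Pds5b-KO siGLO Dppa3 (1.45 ± 0.239, adjusted p 0.000229, all 3) and Smarca5 (0.26 ± 0.0687, adjusted p 0.006, all 3) were both called higher, beside 9.64% of all tested genes. Smarca5 was not called there without replicate 2 (adjusted p 0.0323) or 3 (0.0174) of WT siGLO or replicate 1 of Pds5b-KO siGLO (0.0361). Against Pds5a-KO siGLO, edgeR called 0 activators in Pds5a-KO siPds5b, with 3 at an unadjusted p under 0.05 and 1 higher by DESeq2, with a replicate block or without replicate 3 of Pds5a-KO siPds5b. Of 29 genes listed as repressors, 1 was higher (E2f6, 0.37 ± 0.0806, adjusted p 0.00135) and 2 lower (Zfp42, −0.38 ± 0.0966, adjusted p 0.00417, and Uhrf1, −0.27 ± 0.063, adjusted p 0.00214) in Pds5a-KO siGLO, each in all 3 libraries, beside 9.63% of all tested genes called higher and 8.12% called lower. E2f6 lost the call without replicate 1 of WT siGLO (adjusted p 0.0148), Uhrf1 without replicate 2 of WT siGLO (0.014) or replicate 1 of Pds5a-KO siGLO (0.011), and Zfp42 without replicate 1 or 3 of WT siGLO or replicate 2 or 3 of Pds5a-KO siGLO (up to 0.0412). The list median was −0.070 there, 0.044 in Pds5b-KO siGLO and −0.11 in Pds5a-KO siPds5b. In Pds5a-KO siPds5b against WT siGLO 3 repressors were higher and 8 lower, beside 17.4% and 14.6% of all tested genes. Against Pds5a-KO siGLO 0 were higher and 3 lower in Pds5a-KO siPds5b (4 lower by DESeq2), beside 4% and 3.59%.

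In Pds5b-KO siGLO 6 repressors were higher and 4 lower, the largest Zfp42 (−0.76 ± 0.0971, adjusted p 3.23e-06, all 3 libraries) and Hdac2 (−0.47 ± 0.0747, adjusted p 4.13e-05, all 3), beside 9.64% of all tested genes called higher and 8.57% called lower. The 6 higher were Ubn1, Ehmt1, Smchd1, Setdb1, Ehmt2 and Kdm1a, at 0.39 or less, and without replicate 2 of Pds5b-KO siGLO 0 of the 6 were called. Without replicate 1 of Pds5b-KO siGLO 2 were, and without replicate 1, 2 or 3 of WT siGLO 3, 3 and 2. For WT siPds5b edgeR called 0 of 7 activators and 0 of 29 repressors, with 0 at an unadjusted p under 0.05 and 0 by DESeq2 in both lists.

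Of the 14 tested genes within 500 kb of a member, 4 lie near Usp17l genes, 10 near Tcstv genes and 0 near Zscan4 genes or Zfp352. In Pds5a-KO siGLO against WT siGLO 5 were called lower (Trim30a, −2.23, B020031M17Rik, −2.93, Gm20767, −2.92, AF067061, −3.51, and BC147527, −3.37, listed after their values were seen) and 0 higher (1 higher without replicate 1 of Pds5a-KO siGLO), beside 8.12% of all tested genes called lower, with a median of 0.052. Of these 5, B020031M17Rik, Gm20767 and AF067061 are also among the 39 other 2-cell genes and were counted there. In Pds5a-KO siPds5b against Pds5a-KO siGLO 8 were higher and 0 lower (5 higher without replicate 1 of Pds5a-KO siGLO), beside 4% of all tested genes called higher, with a median of 0.92. Trim30a and Trim12a, chosen after their values were seen, rose there by 3.22 ± 0.535 (adjusted p 0.000175) and 1.06 ± 0.156 (adjusted p 4.36e-05), each in all 3 libraries. Against WT siGLO, Trim12a was higher in Pds5a-KO siPds5b by 1.41 ± 0.158 (adjusted p 1.52e-07, all 3 libraries). It was also called higher in Pds5a-KO siStag1 (0.74 ± 0.161, adjusted p 0.00114, all 3) and in Pds5a-KO siStag2 (0.56 ± 0.163, adjusted p 0.00762, all 3). In both of these conditions the family sums stayed low. Trim30a differed from WT siGLO by −1.37 ± 0.517 with siStag1 and −0.94 ± 0.496 with siStag2, and was called in neither. The part of position next to a member in these results was not tested.

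Promoters were taken as 300 bases of the mm10 reference (GRCm38.p6, RefSeq transcripts), 250 before and 50 after the transcript start, and were found for 6 of the 9 members, but not for Usp17le, Tcstv1 and Tcstv3. Of 3 motifs searched on both strands, GATTNAATC matched 0 of the 6 (88 of 32851 promoters of all genes, 0.268%) and TGCACAC 0 of the 6 (1444, 4.4%). TATAAA, added after the promoters had been read, matched 4 of the 6, Zscan4c, Zscan4d, Zscan4f and Usp17lc, on the strand of the gene, beside 4473 of all promoters (13.6%). A match describes the sequence only. The promoter of Usp17lc comes from a RefSeq transcript start that lies inside the span of the gene given above, not at its first base. The promoters of Zscan4c and Zscan4f were 99.3% identical, those of Zscan4c and Zscan4d 97.2%, and those of Usp17la and Usp17lc 95.3%. Given below from the strand of the gene, with the match in capitals, are those of Zscan4c (chr7:11005495-11005794, + strand), Usp17lc (chr7:103416446-103416745, + strand) and Zfp352 (chr4:90218570-90218869, + strand).

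Zscan4c: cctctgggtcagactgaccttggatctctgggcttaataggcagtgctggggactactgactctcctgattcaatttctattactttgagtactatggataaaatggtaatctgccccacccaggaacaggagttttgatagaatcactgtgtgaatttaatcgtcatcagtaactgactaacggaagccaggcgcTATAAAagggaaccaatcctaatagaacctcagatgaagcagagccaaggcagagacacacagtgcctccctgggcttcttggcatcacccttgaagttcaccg

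Usp17lc: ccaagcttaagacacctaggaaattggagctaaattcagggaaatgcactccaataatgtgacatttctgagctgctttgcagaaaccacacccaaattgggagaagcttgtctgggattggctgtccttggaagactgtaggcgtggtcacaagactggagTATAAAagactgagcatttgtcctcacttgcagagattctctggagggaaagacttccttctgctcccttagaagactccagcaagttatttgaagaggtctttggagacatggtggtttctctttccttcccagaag

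Zfp352: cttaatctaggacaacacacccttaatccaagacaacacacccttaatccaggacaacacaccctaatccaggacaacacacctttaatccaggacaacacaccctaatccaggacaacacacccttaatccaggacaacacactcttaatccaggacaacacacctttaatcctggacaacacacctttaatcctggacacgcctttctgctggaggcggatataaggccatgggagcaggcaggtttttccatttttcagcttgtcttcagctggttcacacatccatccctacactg

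Marker lists for other cell types were counted in the same libraries, and no list's genes were all at 0. Trophoblast markers (7 tested, Krt8 the most abundant) had 6 higher and 1 (Eomes) lower in Pds5a-KO siGLO against WT siGLO. The shares of all tested genes were 9.63% and 8.12%. In Pds5a-KO siPds5b against WT siGLO 5 were higher (Cdx2, Gata3, Krt7, Krt8 and Krt18) and 1 (Eomes) lower, beside 17.4% and 14.6%. In Pds5b-KO siGLO against WT siGLO 2 were higher and 1 lower, beside 9.64% and 8.57%. Between Pds5a-KO siPds5b and Pds5a-KO siGLO 1 (Tfap2c) was lower, beside 3.59%. Marker genes in parentheses were listed after their values were seen. Their sum was 3940, 4124 and 4230 in WT siGLO, 4045, 4196 and 4059 in WT siPds5b, 5924, 9914 and 10359 in Pds5b-KO siGLO and 23929, 27997 and 28864 in Pds5a-KO siStag2. The sums of the other lists follow in the order WT siGLO, WT siPds5b, Pds5a-KO siGLO, Pds5b-KO siGLO, Pds5a-KO siPds5b, Pds5a-KO siStag1 and Pds5a-KO siStag2.

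Germ cell markers (8 tested, Ddx4 the most abundant) had 4 higher (Ddx4, Mael, Sycp3 and Taf7l) and 1 (Dazl) lower in Pds5a-KO siGLO and 5 higher (Sycp1 besides these 4) in Pds5a-KO siPds5b, with sums of 2524, 1553 and 1649, then 2465, 1655 and 1747, then 2872.5, 2654 and 2530.1, then 2805, 2207 and 2511, then 3382, 3238 and 3154.5, then 3477, 3647 and 3612, and 2754, 2941 and 3142. Neural markers (7 tested, Nes) had 2 (Sox1 and Nes) lower in Pds5a-KO siGLO, and 2 (Map2 and Neurog2) higher and 3 (Sox1, Nes and Tubb3) lower in Pds5a-KO siPds5b, with sums of 3392, 3716 and 3972.5, then 3430.4, 3739 and 3678, then 2257, 2626 and 2304, then 3857, 3655 and 3542, then 1903, 2111.5 and 1914, then 2538.5, 3390.3 and 2728, and 2781, 2872 and 2475. Fibroblast feeder markers (6 tested, Col1a1) had 0 called in Pds5a-KO siGLO by edgeR (1 at an unadjusted p under 0.05, 0 by DESeq2), 2 (Postn and Thy1) lower in Pds5b-KO siGLO and 1 (Postn) lower in Pds5a-KO siPds5b, with sums of 1081, 1128 and 1502.5, then 1754, 1742 and 2166, then 341, 959 and 1413, then 335, 357 and 457, then 459, 1037 and 1332, then 307, 664.5 and 937, and 635, 604 and 885. Primitive endoderm markers (8 tested, Lama1) had 0 called by edgeR or DESeq2 in Pds5a-KO siGLO and in Pds5a-KO siPds5b (0 at an unadjusted p under 0.05 in both), with sums of 5924, 3827 and 4063, then 6184, 3819.6 and 4152, then 9388.5, 4246 and 4323, then 13268, 7311 and 6086, then 7820.5, 3348 and 3621, then 9231, 4191.5 and 4015, and 3849, 3557.5 and 3520.5. In Pds5b-KO siGLO 2 germ cell markers were higher and 0 lower, and 3 neural markers higher and 0 lower. Beside these lists, 9.63% of all tested genes were called higher and 8.12% lower in Pds5a-KO siGLO. The shares were 9.64% and 8.57% in Pds5b-KO siGLO and 17.4% and 14.6% in Pds5a-KO siPds5b, all against WT siGLO. The part of the marker lists in the results for the 9 members was not tested.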

How the data were processed

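Gene counts of 21 libraries (7 conditions of 3) were taken as deposited: the authors aligned reads with STAR to mm10 and give integer read counts per gene, one file per library. Their counting tool, annotation and strand setting are not given in the sources used here. Total counts ran from 17311090 to 23989198 (median 19628146), all genes included.

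Conditions were compared in 1 edgeR model with 7 condition means (edgeR 4.0.16, R 4.3.3; filterByExpr, TMM normalization, robust quasi-likelihood F test, Benjamini-Hochberg adjustment over 14963 genes, threshold 0.01). The SE is the log2 fold change divided by the square root of F. In fits with family sums, the sums replace their members. The floor for a group at 0 is 3 counts per library, and counting intervals are 95% exact binomial intervals of the pooled counts. A condition is said to differ beyond spread when the gap between means exceeds the sum of both SDs. Sequences were read from GRCm38.p6 with Biopython 1.88 under Python 3.11.15, and figures drawn with matplotlib 3.10.9. The code was tested on simulated data with known changes.

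The 9 members and the gene lists were chosen with earlier results on these libraries known. Named were the 9 members and the 4 targeted genes, of each list at most 4 called genes per comparison by size of change, activators and repressors called in either knockout (up to 10), and the genes with the most similar pattern. This rule, the alternatives and the comparisons were written before the counts were analysed here, but with those earlier results known. Exceptions are the genes and the motif said to be listed or added later. Alternatives were RLE size factors or library size in place of TMM, DESeq2 1.42.0, other count filters and thresholds, only the conditions compared, a replicate block, sums over every copy, Spearman's rho, and leaving out each library. Germ cell, neural, trophoblast, primitive endoderm and fibroblast feeder markers and mESC markers were checked as lists. ChIP-seq data were not used here. The counts carry no molecular identifiers, and 3 libraries per condition of 1 clone per knockout limit every comparison.

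Replicate numbers were checked as pairs by the correlation of residuals from the condition means. Pairs of the same number were all over 0.1 between WT siPds5b and WT siGLO (0.521, 0.396 and 0.336) and between Pds5a-KO siGLO and the same clone with siPds5b (0.688, 0.336 and 0.554), siStag1 (0.624, 0.175 and 0.529) or siStag2 (0.135, 0.236 and 0.236). In these 4 comparisons the numbers are taken to pair the samples, from the data and not from the labels. Between genotypes they are not.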

Additional observations from a re-analysis of the deposited data

Results flagged for a closer look

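For 222 of the 14963 tested genes, siPds5b changed the level differently in the Pds5a-KO clone and in WT cells by an interaction test (edgeR quasi-likelihood, Benjamini-Hochberg), with a difference above 0 for 88 and under 0 for 134. Given here are the 23 that are on a gene list reported here, next to a member or in the ranking by similar pattern, without the 9 members, with 17 above 0 and 6 under. Values are log2 differences of the siPds5b effect, clone minus WT, with adjusted p. Of the copies of the families, which can share reads with the members, Usp17ld had 3.33 (0.00761), Usp17lb 3.14 (0.000458) and Zscan4e 2.72 (0.00254). Of the other 2-cell genes, Tdpoz3 had 4.65 (0.000774), Pramef6 4.39 (0.00471), Cml2 3.01 (0.00956), Gm2016 2.66 (0.000458), Gm13078 2.61 (0.00221), Gm2022 2.58 (0.000645), Gm8994 2.57 (0.00206), Gm5039 2.52 (0.00198), Gm5662 2.47 (8.03e-05), Gm8300 2.33 (0.000663), Ddit4l 1.05 (0.00193) and Tcl1 −0.94 (0.00843). BC080695, which followed the Zscan4 and Tcstv sums, had 2.46 (0.00116). Next to members, Trim30a had 3.22 (0.00995) and Trim12a 1.14 (0.00467). Of marker and repressor genes, Esrrb had −1.26 (2.75e-07), Klf4 −1.21 (3.99e-07), Zfp42 −1.15 (3.19e-05), Tfap2c −0.93 (0.00493) and Sox2 −0.75 (8.03e-05).

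Leaving out 1 of the 12 libraries involved undid some of these calls. Without replicate 2 of Pds5a-KO siGLO the adjusted p was 0.0105 for Gm13078, 0.0101 for Gm5039 and 0.0122 for Zscan4e. Trim30a was called only without replicate 1 of WT siGLO (otherwise up to 0.0395), Cml2 only without replicate 3 of Pds5a-KO siPds5b (up to 0.0347), Usp17ld only without replicate 3 of WT siGLO or of Pds5a-KO siPds5b (up to 0.0281) and Tcl1 only without replicate 1 of WT siGLO or replicate 3 of Pds5a-KO siPds5b (up to 0.0304). Pramef6 was called without replicate 3 of WT siGLO, Pds5a-KO siGLO or Pds5a-KO siPds5b or replicate 1 of WT siPds5b, and in no other case (up to 0.0248). Tfap2c was called without replicate 2 of WT siGLO, 3 of WT siPds5b, 1 of Pds5a-KO siGLO or 3 of Pds5a-KO siPds5b, and in no other case (up to 0.0175). Trim12a was called without replicate 1 of WT siGLO, 2 or 3 of WT siPds5b, 3 of Pds5a-KO siGLO or 2 of Pds5a-KO siPds5b, and in no other case (up to 0.0177).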

How the results depend on the processing

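The combined SD used here is the square root of the summed variances of the conditions compared, on the log2 scale. The log2 fold changes of the 3 family sums and Zfp352 kept within it in all 311 values under other settings and all 288 values with 1 library left out. Of the other members, 567 values under other settings did too, and 575 of 576 with 1 library left out, the exception being Tcstv1 between the knockouts (−1.74 without replicate 2 of Pds5a-KO siGLO). Leaving out 1 of 3 libraries moves a mean by less than the SD of its group. The values with 1 library left out were thus nearly bound to keep within the combined SD, and do not measure stability. No direction of a called gene reversed. Named genes outside the members kept their call in 641 values under other settings and lost it in 16. With 1 library left out they kept it in 613, lost it in 124 and gained it in 1. No scaling moved the median of all genes by over 0.1. The counts below, of other 2-cell genes, genes next to members and all genes, changed by more than 1.5 times. So did 26 counts of activators, 38 of repressors and 12 of family copies under other settings, and 8, 27 and 7 with 1 library left out, most of which are not listed. Conditions are compared with WT siGLO unless said otherwise, and "in the clone" means against Pds5a-KO siGLO. Requiring at least 10 counts in every library left no value for the Tcstv sum, Zfp352 and the members with low counts. The Tcstv sum had 122, 63 and 102 counts in WT siGLO and 9, 14 and 6 in Pds5a-KO siGLO. Whether a gene passes this filter thus depends on its change.

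At an adjusted p under 0.1, which lets more genes pass, the other 2-cell genes called were 2 higher in Pds5a-KO siGLO, 1 higher and 26 lower in Pds5b-KO siGLO, 1 lower with siStag1 and 1 higher and 6 lower with siStag2 in the clone, 6 higher and 24 lower between the knockouts, and 24 higher and 2 lower in the interaction. Genes next to members were 1 higher in Pds5a-KO siGLO, 2 higher and 6 lower in Pds5b-KO siGLO, 1 lower with siPds5b in the clone, 4 higher and 4 lower between the knockouts and 7 higher in the interaction. All genes called were 2748 higher and 2509 lower in Pds5a-KO siGLO, 3020 and 3023 in Pds5b-KO siGLO, 2 and 5 in WT siPds5b, 4026 and 3770 in Pds5a-KO siPds5b, 2938 and 2821 in Pds5a-KO siStag1, and 3918 and 3689 in Pds5a-KO siStag2. They were 1695 and 1550 with siPds5b in the clone, 60 and 78 with siStag1, 1023 and 1021 with siStag2, 3236 and 2859 between the knockouts and 440 and 506 in the interaction.

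When called genes also had to change by at least 1 on the log2 scale, which lets fewer genes pass, other 2-cell genes were 3 higher in Pds5a-KO siPds5b and 0 lower in the interaction. Genes next to members were 0 lower in Pds5a-KO siPds5b, 0 higher in Pds5a-KO siStag1 and in Pds5a-KO siStag2 and 1 higher between the knockouts. All genes were 600 higher and 358 lower in Pds5a-KO siGLO, 373 and 358 in Pds5b-KO siGLO, 1276 and 522 in Pds5a-KO siPds5b, 670 and 425 in Pds5a-KO siStag1, and 977 and 521 in Pds5a-KO siStag2. They were 282 and 95 with siPds5b in the clone, 0 and 1 with siStag1, 18 and 29 with siStag2, 362 and 219 between the knockouts and 54 lower in the interaction.

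With at least 10 counts in every library fewer genes were tested. Genes low in any condition were removed, such as Abcb5, with 2 counts in Pds5a-KO siGLO against 78 in WT siGLO. The numbers called under this filter therefore do not measure how stable the calls are. Other 2-cell genes were then 6 lower in Pds5a-KO siGLO, 1 higher and 6 lower in Pds5b-KO siGLO, 2 lower in Pds5a-KO siPds5b, 5 lower in Pds5a-KO siStag1 and in Pds5a-KO siStag2, 5 higher with siPds5b in the clone, 3 lower between the knockouts and 4 higher and 0 lower in the interaction. Genes next to members were 0 lower in Pds5a-KO siGLO, 1 in Pds5b-KO siGLO, and 0 in Pds5a-KO siPds5b, Pds5a-KO siStag1 and Pds5a-KO siStag2, with 3 higher with siPds5b in the clone, 0 lower between the knockouts and 1 higher in the interaction. With no filter on low counts, other 2-cell genes were 1 lower with siStag1 in the clone, genes next to members 0 lower in Pds5a-KO siPds5b and 1 higher in Pds5a-KO siStag2, and all genes 2 lower in WT siPds5b.

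With DESeq2, other 2-cell genes were 1 higher in Pds5b-KO siGLO, 1 lower with siStag1 and 2 lower with siStag2 in the clone, and 17 higher and 2 lower in the interaction. Genes next to members were 5 higher in the interaction. All genes were 4 lower in WT siPds5b, 32 higher and 42 lower with siStag1 and 391 and 379 with siStag2 in the clone, and 187 and 234 in the interaction. With library size only in place of TMM, other 2-cell genes were 0 lower in the interaction, and genes next to members 0 lower in Pds5a-KO siPds5b and 1 higher in the interaction. With a model restricted to the libraries of each comparison, other 2-cell genes were 0 lower in the interaction, and genes next to members 0 lower in Pds5a-KO siPds5b, 1 higher in Pds5a-KO siStag2 and 0 higher in the interaction. All genes were then 2 lower in WT siPds5b, 301 higher and 223 lower with siPds5b, 1 and 7 with siStag1 and 33 and 66 with siStag2 in the clone, 796 higher between the knockouts and 40 higher in the interaction. By Spearman's rho, 5 of the 10 genes closest to the Tcstv sum were shared with the Pearson ranking. The cause of these changes was not tested.

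Replicate numbers were also tried as a block. Over 12029 genes, 63 pairs of libraries with the same number had a median correlation of residuals of 0.176 (−0.134 to 0.688, 37 over 0.1), and 126 pairs with different numbers −0.0895 (27 over 0.1). Between genotypes not every pair was over 0.1, so those samples are taken to share only a number, and not every library correlated best with one of its own number. With the replicate block, other 2-cell genes were 1 lower with siStag1 and 2 lower with siStag2 in the clone, genes next to members 5 higher in the interaction, and all genes 3 lower in WT siPds5b, 18 higher and 30 lower with siStag1 and 363 and 314 with siStag2 in the clone, and 171 and 218 in the interaction. All genes called with siPds5b in the clone went from 1136 to 1568. Members called went from 1 to 5 in Pds5b-KO siGLO, from 1 to 3 in Pds5a-KO siPds5b, from 5 to 8 between the knockouts and from 7 to 9 in the interaction. In comparisons with siGLO within a genotype, where the numbers pair the samples, the block changed no call of a member and no other call reported for named genes. The cause was not tested.

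With 1 library left out, ranges for other 2-cell genes were 7 (without replicate 2 of Pds5b-KO siGLO) to 12 lower in Pds5b-KO siGLO, 1 to 2 lower with siStag2 in the clone, 7 to 11 lower between the knockouts, and 7 (without replicate 2 of Pds5a-KO siGLO) to 14 higher and 0 to 1 lower in the interaction. For genes next to members they were 0 to 1 higher in Pds5a-KO siGLO, 0 to 1 higher and 0 to 3 lower in Pds5b-KO siGLO, 0 lower in Pds5a-KO siPds5b, 1 to 2 higher in Pds5a-KO siStag1 and in Pds5a-KO siStag2, 5 to 7 higher with siPds5b in the clone and 0 to 3 higher in the interaction. All genes were 936 (without replicate 3 of WT siGLO) to 1502 higher and 784 (without replicate 2 of Pds5a-KO siGLO) to 1082 lower in Pds5a-KO siGLO, and 919 to 1459 higher and 785 to 1152 lower in Pds5b-KO siGLO, both lowest without its replicate 2. In the clone they were 344 (without replicate 2 of Pds5a-KO siGLO) to 500 higher and 333 (without replicate 2 of Pds5a-KO siPds5b) to 457 lower with siPds5b, 0 to 2 higher and 4 to 12 lower with siStag1, lowest without replicate 2 of Pds5a-KO siGLO, and 13 to 167 higher and 55 to 208 lower with siStag2, lowest without replicate 1 of Pds5a-KO siStag2. Between the knockouts they were 766 (without replicate 2 of Pds5a-KO siGLO) to 1251 higher, and in the interaction 47 (without replicate 2 of Pds5a-KO siGLO) to 95 higher and 73 (without replicate 3 of WT siGLO) to 137 lower.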
